A study of Mus musculus with 2 samples.

Results

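The arthritis studied here follows an injection of the enzyme glucose-6-phosphate isomerase (GPI) into mice, and 10 genes of arginine and polyamine metabolism were followed in the splenocytes. They are Arg1, Arg2, Nos2, Ass1 and Asl, which handle arginine, and Odc1, Oaz1, Srm, Sms and Sat1, which make, restrain or break down polyamines. The 10 genes were chosen by pathway while the ratios of these same arrays were already known, so every ratio given here for them is a description and carries no test. Every probe set with a single gene symbol in the platform annotation was taken, which gave 11 probe sets for 8 of the 10 genes, out of 20380 such probe sets for 12393 genes in all. Ass1 and Sms had no probe set with a single symbol and were not analysed here.

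GPI-immunized mice were male DBA/1 animals, 6 to 8 weeks old by the study's methods, injected with 300 μg of recombinant human GPI fused to glutathione S-transferase (GST). Control mice of the same strain, sex and age received 100 μg of GST alone. Both groups had complete Freund's adjuvant, so the comparison is with adjuvant-treated and not with naive spleen. Spleens were taken on day 10, 3 in each group, and RNA of all splenocytes was read on 1 Affymetrix mouse 430A2.0 GeneChip per group. The sources used here do not say whether the RNA of the 3 spleens was pooled.

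Arginine stands at a branch point in immune cells. Arginase, as the cytosolic isoform Arg1 or the mitochondrial isoform Arg2, splits it into urea and ornithine, and inducible nitric oxide synthase (Nos2) turns it into nitric oxide and citrulline, which Ass1 and Asl build back into arginine. Ornithine decarboxylase (Odc1) turns ornithine into putrescine, to which spermidine synthase (Srm) and spermine synthase (Sms) add aminopropyl groups. Antizyme (Oaz1) binds ornithine decarboxylase and delivers it to the proteasome, and the acetyltransferase Sat1 marks spermidine and spermine for breakdown or export.

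On a GeneChip, several short oligonucleotides form the probe set of a transcript, and their brightness is summarized as 1 linear signal. Since each group has a single array and no replicates, no p-value could be formed, and the small number of arrays limits the precision. Signals reached 9762.3 on the GPI-immunized array, against 9642.3 on the control array, with medians of 51.8 and 48.6. As a guide to background, the 27 probe sets for Bacillus transcripts gave at most 7.2 on the GPI-immunized array, against 14.1 on the control array. Of 18 probe sets for spiked hybridization controls, 17 were dimmer on the GPI-immunized array, with a geometric mean ratio of 0.879. Log2 ratios of different probe sets of one gene spread with an SD of 0.26 (2538 pairs), a factor of 1.20, which holds no variation between mice or hybridizations.

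Arg2 was the member that stood apart, and the others lay closer to a ratio of 1. Of the 8 genes measured, 6 reached a signal of 50.2, the median of all signals, on at least 1 array, and of these 1 had a ratio (GPI-immunized over control) of at least 2, 0 had a ratio of at most 0.5 and 5 lay between. Among all 6961 genes with such a signal, 2.23% (155 genes) were at least 2-fold higher and 0.445% (31 genes) at least 2-fold lower. These counts were 110 and 48 with each array divided by its median, and 253 and 10 with the arrays scaled to the spiked controls. At 1.5-fold the count was 2 higher, Arg2 and Srm, and 0 lower, against 7.04% and 3.23% of all genes. Since the genes were picked with these ratios known, nothing is read from the comparison of the shares. The median log2 ratio of the 6 genes was 0.26, and that of the 6961 genes was 0.06. With a signal limit at the 75th percentile of all signals, the medians were 0.04 for the 4 genes left and 0.05 for all genes left. With the arrays scaled to the spiked controls, these medians were 0.45 and 0.25.

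The mitochondrial arginase Arg2 (Entrez Gene 11847) had a signal of 155.1 on the GPI-immunized array, against 36.2 on the control array. Its other probe set, whose probes are shared by several transcripts, had 84.2 on the GPI-immunized array, against 22.1 on the control array. Both probe sets were thus brighter on the GPI-immunized array, and their control signals, though low, lay above the highest Bacillus signal of 14.1. The ratios were 4.28 and 3.81, or 2.10 and 1.93 on the log2 scale, which differ from each other by less than the 0.26 between probe sets of one gene. Arg2 ranked 12 from the top of the 6961 genes. Under the other scalings of the arrays its ratio lay between 3.98 and 4.88.

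The cytosolic arginase Arg1 (Entrez Gene 11846), known from liver and from macrophages treated with IL-4, had signals of 1.5 on the GPI-immunized array, against 0.9 on the control array. Inducible nitric oxide synthase, Nos2 (Entrez Gene 18126), had signals of 0.8 on the GPI-immunized array, against 0.7 on the control array. All 4 values lay in the range of the Bacillus probe sets, so no ratio is given for either gene, and a transcript below the reach of these probe sets would not have been seen. Each gene was read by 1 probe set. Asl (argininosuccinate lyase, Entrez Gene 109900), which releases arginine from argininosuccinate, had 88.4 on the GPI-immunized array, against 71.5 on the control array, a ratio of 1.24. Its log2 ratio of 0.31 is close in size to the spread between probe sets.

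**Figure D1:**
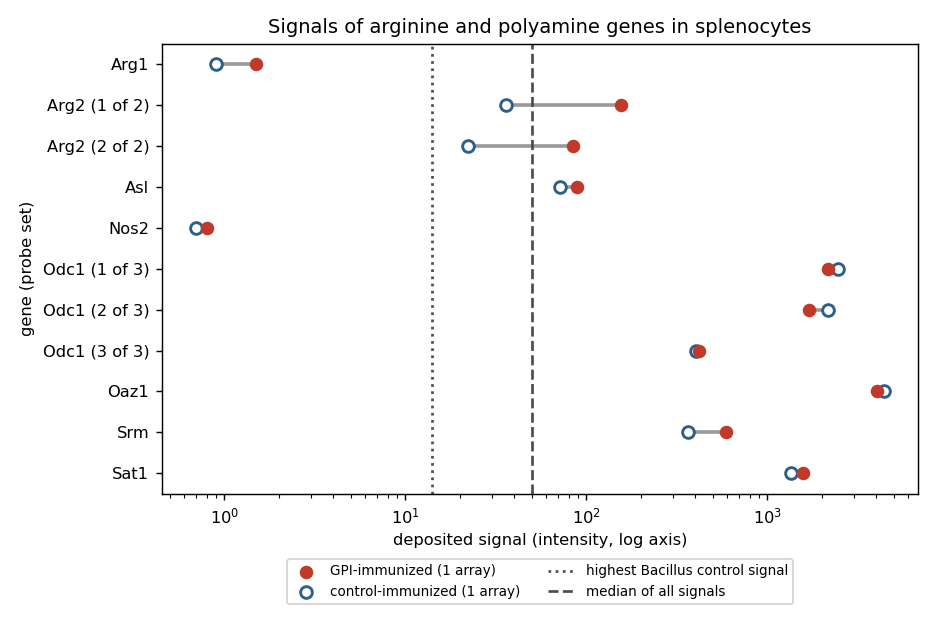
Deposited signal (horizontal log axis) of the 11 probe sets of 8 arginine and polyamine genes, with a filled point for the GPI-immunized array, an open point for the control-immunized array and a bar joining them, 1 array per group. Both Arg2 probe sets cross the median of all signals (50.2, dashed), Arg1 and Nos2 lie under the highest Bacillus signal (14.1, dotted), and the Odc1, Oaz1 and Sat1 points nearly coincide.

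In the polyamine branch, Srm was the only measured gene that was at least 1.5-fold higher. Spermidine synthase, Srm (Entrez Gene 20810), had a signal of 589.0 on the GPI-immunized array, against 366.8 on the control array. The ratio was 1.61 (log2 0.68), which placed it at rank 363 of 6961, and over the other scalings it lay between 1.51 and 1.83. Srm was read by 1 probe set, so no second reading was at hand. Its probes can match more than 1 transcript, which may be transcripts of Srm itself. Srm had no value once such probe sets were left out.

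Ornithine decarboxylase, Odc1 (Entrez Gene 18263), the enzyme that opens polyamine synthesis, was read by 3 probe sets. The brightest had 2172.6 on the GPI-immunized array, against 2472.3 on the control array, a ratio of 0.879. The next had 1707.8 on the GPI-immunized array, against 2178.8 on the control array, a ratio of 0.784, and the dimmest had 421.9 and 403.4, a ratio of 1.05. The probe sets therefore lay on both sides of 1. With the arrays scaled to the spiked controls the ratio of the brightest probe set became 1.00, so no direction is given for Odc1. All 3 carry probes that can match more than 1 transcript, which may be transcripts of Odc1 itself. Mouse Odc1 also has processed pseudogenes, and whether any of these probes read them was not tested.

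Antizyme, Oaz1 (Entrez Gene 18245), had signals of 4048.2 on the GPI-immunized array, against 4420.9 on the control array, a ratio of 0.916, from 1 probe set of the same kind. Its log2 ratio of -0.13 was within the spread between probe sets, and its sign turned when the arrays were scaled to the spiked controls, where the ratio was 1.04. Sat1 (Entrez Gene 20229), the acetyltransferase of polyamine breakdown, had 1569.6 on the GPI-immunized array, against 1351.4 on the control array, a ratio of 1.16 from 1 probe set. The log2 ratio of Sat1, 0.22, was also within the spread between probe sets, and its ratio lay between 1.09 and 1.32 under the other scalings. For the brightest probe sets, the log2 ratio of Odc1 was 0.06 below that of Oaz1. That of Srm was 0.87 above that of Odc1, and that of Arg2 was 2.29 above that of Odc1. The dimmer Odc1 probe sets had log2 ratios of -0.35 and 0.06, so these differences, and the order of Odc1 and Oaz1, depended on the probe set. At the deposited scaling, the brightest probe sets of the enzyme, its antizyme and the catabolic acetyltransferase thus had ratios from 0.879 to 1.16, and the synthase Srm and the arginase Arg2 lay further up the ranking.

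**Figure D2:**
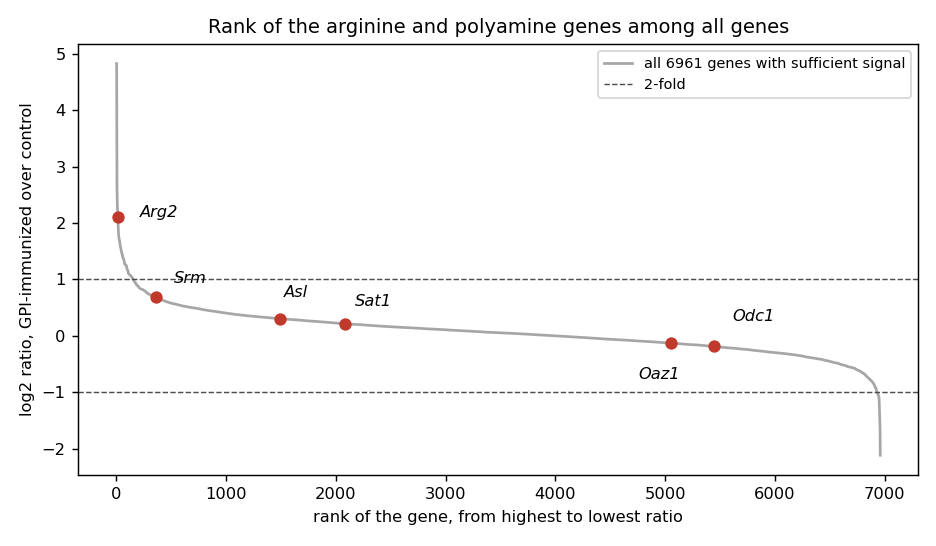
Log2 ratio of the GPI-immunized over the control signal (vertical axis) of all 6961 genes with sufficient signal, ordered from highest to lowest (horizontal axis), with the 6 arginine and polyamine genes that reached that signal marked in red. Arg2 sits at rank 12 above the upper 2-fold line, Srm at rank 363 under it, and Oaz1 and Odc1 at ranks 5054 and 5449.

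RefSeq promoter windows of GRCm38.p6, from 250 bases before to 50 bases after the start of the gene, were at hand for 5 of the 10 genes. No window was at hand for Arg1, Arg2, Nos2, Srm or Asl. The windows of Odc1, Oaz1 and Sat1 are shown because these were the measured genes with a window. The window of Gatm, an arginine-consuming enzyme whose ratio is given further on, is shown beside them. Capitals mark matches, on either strand, to the E-box CACGTG, which Myc and Max bind, the cAMP response element TGACGTCA, the GC box GGGCGG, the pentamer CCAAT of the CCAAT box or the TATA box TATAAA, and no matches overlap in these windows. The windows lie at chr12:17544623-17544922, plus strand, at chr10:80826406-80826705, plus strand, at chrX:155216400-155216699, minus strand and at chr2:122611228-122611527, minus strand, and each is written 5′ to 3′ on the strand of its gene.
Odc1: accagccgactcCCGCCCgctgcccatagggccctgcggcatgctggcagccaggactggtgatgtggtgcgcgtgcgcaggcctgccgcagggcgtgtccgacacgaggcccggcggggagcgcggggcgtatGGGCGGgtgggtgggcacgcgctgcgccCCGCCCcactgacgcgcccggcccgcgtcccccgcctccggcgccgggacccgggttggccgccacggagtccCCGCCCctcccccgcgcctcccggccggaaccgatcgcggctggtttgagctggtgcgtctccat
Oaz1: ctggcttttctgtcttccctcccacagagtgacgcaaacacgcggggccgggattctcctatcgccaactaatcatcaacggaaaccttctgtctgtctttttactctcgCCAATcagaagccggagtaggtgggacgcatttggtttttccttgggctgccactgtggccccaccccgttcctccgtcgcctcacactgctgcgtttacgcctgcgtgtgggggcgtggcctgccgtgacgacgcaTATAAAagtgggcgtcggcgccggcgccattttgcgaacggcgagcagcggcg
Sat1: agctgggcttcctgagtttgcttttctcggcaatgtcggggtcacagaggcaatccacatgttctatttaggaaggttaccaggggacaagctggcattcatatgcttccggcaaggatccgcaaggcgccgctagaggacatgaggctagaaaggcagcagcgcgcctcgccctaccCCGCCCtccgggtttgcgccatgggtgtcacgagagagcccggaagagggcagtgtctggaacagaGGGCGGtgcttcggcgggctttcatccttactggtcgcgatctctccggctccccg
Gatm: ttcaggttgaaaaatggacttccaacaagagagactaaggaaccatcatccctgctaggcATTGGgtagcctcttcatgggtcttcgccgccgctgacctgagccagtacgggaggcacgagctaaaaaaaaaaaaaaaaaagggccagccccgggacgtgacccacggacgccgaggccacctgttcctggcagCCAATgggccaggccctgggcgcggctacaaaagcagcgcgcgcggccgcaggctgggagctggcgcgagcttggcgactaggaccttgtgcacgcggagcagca

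The Odc1 window held 4 GC boxes and no other match, and 78.0% of its bases were G or C, against a median of 52.7% over the 32851 promoter windows of the table. Sat1 held 2 GC boxes, Oaz1 held 1 CCAAT box and 1 TATA box, and Gatm held 2 CCAAT boxes. None of these 4 windows held the E-box or the cAMP response element, and sequence outside the windows, such as that further into the gene, was not searched. Among the windows not shown, those of genes not analysed here, Ass1 held 1 E-box and Sms held 1 in 1 of its 2 windows. Over all windows, 7.15% held the E-box, 1.79% the cAMP response element, 35.7% a GC box, 37.4% a CCAAT box and 13.6% the TATA box. These matches describe letters in a window, and the arrays did not measure what binds there.

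Around these genes, 57 further genes of arginine transport, the urea cycle, creatine and nitric oxide synthesis, polyamine metabolism and the hypusine pathway were listed, of which 42 were measured and 26 had sufficient signal. In GPI-immunized splenocytes 1 of the 26 was at least 2-fold higher, 0 were lower to that degree and 25 lay between, with a median ratio of 1.00. Over all 6961 genes with such a signal, 2.23% were at least 2-fold higher and 0.445% at least 2-fold lower, and nothing is read from the comparison. The gene past 2-fold was Gatm, which transfers the amidino group of arginine to glycine in creatine synthesis. It had 104.8 on the GPI-immunized array, against 47.7 on the control array, a ratio of 2.20 at rank 106, and lay between 2.06 and 2.50 under the other scalings. Like Arg2, Gatm reached the signal limit only on the GPI-immunized array. The other creatine and agmatine genes measured (3 of 4) did not reach the signal limit.

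Transport genes showed no gene past 2-fold among the 4 with sufficient signal. Slc3a2, the heavy chain shared by several amino acid exchangers, had 1126.3 on the GPI-immunized array, against 1018.8 on the control array, and its partner chain Slc7a5 had 452.2 and 509.1. Slc7a7, which carries cationic amino acids with Slc3a2, had a ratio of 1.39. The probe sets of Slc7a6 disagreed, with ratios of 0.855 and 1.76. The arginine transporters Slc7a1 and Slc7a2 had no probe set above the highest Bacillus signal on either array.

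Among urea cycle, ornithine and proline genes, 5 had sufficient signal and all lay between the 2-fold limits, with a median log2 ratio of 0.15. Oat, the aminotransferase that links ornithine to proline and glutamate, had 1290.3 on the GPI-immunized array, against 1001.9 on the control array, a ratio of 1.29. Aldh4a1, of proline breakdown, had a ratio of 1.36, the glutamine synthetase Glul 0.812 and the mitochondrial ornithine carrier Slc25a15 0.757. The liver-type urea cycle genes Cps1 and Otc were not above the Bacillus range.

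On the nitric oxide side, the gene furthest from 1 among those with sufficient signal was Gch1, whose enzyme GTP cyclohydrolase opens the synthesis of tetrahydrobiopterin, the cofactor of nitric oxide synthases. Its brighter probe set had 752.0 on the GPI-immunized array, against 1212.8 on the control array, and its dimmer one had 117.2 and 198.0. The ratios of 0.620 and 0.592 were close to each other and did not reach the 2-fold limit. Gch1 ranked 139 from the bottom of the 6961 genes and lay between 0.582 and 0.706 under the other scalings. Of the next enzymes of the cofactor, Pts had a ratio of 0.801 and Spr 1.42. Qdpr, which regenerates the cofactor, had 0.902 for its brighter probe set and 1.17 for its dimmer one. The neuronal synthase Nos1 had signals of 5.2 and 8.4, in the Bacillus range. The endothelial synthase Nos3, named after its values were seen, had 35.1 on the GPI-immunized array, against 16.9 on the control array, a ratio of 2.08, further from 1 than that of Gch1 but with both signals under the limit of 50.2.

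The 8 other polyamine genes with sufficient signal had ratios from 0.865 to 1.37, and 0 of them were past 2-fold in either direction. Azin1, the antizyme inhibitor that frees ornithine decarboxylase, had 1006.5 on the GPI-immunized array, against 1093.1 on the control array for the brighter probe set and 883.7 and 777.5 for the other, ratios on both sides of 1. The second antizyme gene Oaz2 had 151.0 and 90.9 on the GPI-immunized array, against 142.6 and 60.8 on the control array, for its brighter and dimmer probe sets. The spermine oxidase Smox had a ratio of 0.865, and Ahcy, which clears the S-adenosylhomocysteine left by methylation, had 1.37. In the hypusine pathway, where spermidine modifies the translation factor eIF5A, all 3 measured genes lay between 0.997 and 1.11, with Eif5a at 4910.1 on the GPI-immunized array, against 4798.6 on the control array for its brightest probe set and a ratio of 1.51 for the dimmer one.

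**Figure D3:**
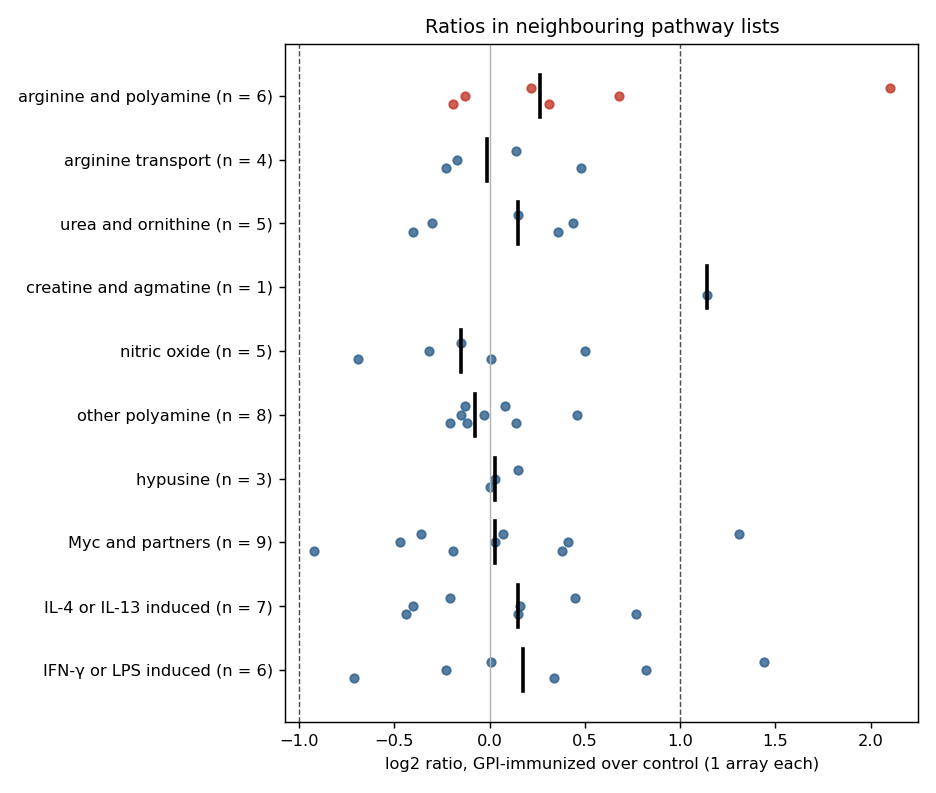
Log2 ratio of the GPI-immunized over the control signal (horizontal axis) for genes with sufficient signal, with each point a gene and 1 array per group, in the arginine and polyamine genes (red) and in 9 neighbouring lists (blue), with list medians as black bars and 2-fold ratios as dashed lines. Arg2, at 2.10, lies further right than any point of the 9 lists, whose highest is 1.44 (Il1b), and the hypusine genes lie closest together.

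Myc with its partner Max drives Odc1 and Srm in many cells, and Mxd1 is an antagonist that competes for Max. Myc itself had 517.9 on the GPI-immunized array, against 494.3 on the control array, a ratio of 1.05. Of the 9 genes of this family with sufficient signal, 1 was at least 2-fold higher and 0 were lower by as much, against 2.23% and 0.445% of all genes. The higher one was Mxd1, with 81.1 on the GPI-immunized array, against 32.6 on the control array, a ratio of 2.49 (1.61 with low signals raised to the median of all signals). Mxd1 also reached the signal limit only on the GPI-immunized array. Max had a ratio of 1.33, Mnt 0.721 and Mycl 0.527. Mycl lay under 0.5 with the arrays divided by their medians, quantile normalized or centred by loess.

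Genes that IL-4 or IL-13 induce in macrophages together with Arg1, and genes that interferon-γ or lipopolysaccharide induce together with Nos2, lay on both sides of 1. Of 7 genes of the IL-4 list with sufficient signal, 0 were past 2-fold in either direction, with a median log2 ratio of 0.15. Retnla, a secreted protein of such macrophages, had 88.5 on the GPI-immunized array, against 52.0 on the control array, a ratio of 1.70. Chil3 had a ratio of 1.37, Pdcd1lg2 0.756 and Clec10a 0.736. Of 6 genes of the other list, 1 was at least 2-fold higher, against 2.23% of all genes. It was the cytokine Il1b at 1920.2 on the GPI-immunized array, against 708.3 on the control array, a ratio of 2.71. Ptgs2 (cyclooxygenase-2) had a ratio of 1.76 and the interferon-γ-induced chemokine Cxcl9 0.612. The dimmer Ptgs2 probe set had 33.2 on the GPI-immunized array, against 9.4 on the control array, which is under the highest Bacillus signal. The probe sets of Cd86 lay on both sides of 1, with ratios of 1.27 and 0.952.

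Beside Arg2, markers of several cell types lay away from 1. Over all 6961 genes with sufficient signal, 4006 had ratios above 1 and 2950 below, and 2.23% were at least 2-fold higher. Scaling to the spiked controls raised the median log2 ratio of all genes from 0.056 to 0.247, which enters the counts over the scalings. The lists were chosen with earlier results known, so nothing is read from the comparison. All 16 measured neutrophil markers had ratios above 1 under each of the 5 scalings, 9 were at least 2-fold higher (8 to 12 over the scalings), none was at 0, and their summed signal was 52650 on the GPI-immunized array, against 35560 on the control array, a ratio of 1.48. Their ratios ran from 1.12 to 3.28 for the brightest probe set of each gene, with Mmp8, Mmp9, Cxcr2 and Hp at the top, so that 0 of the 16 reached the 4.28 of Arg2, although the dimmer Mmp9 probe set had 5.40. Of 12 monocyte and macrophage markers with sufficient signal, 11 had ratios above 1 (9 to 12 over the scalings) and 1, the lipopolysaccharide co-receptor Cd14, was at least 2-fold higher, with 390.4 on the GPI-immunized array, against 79.2 on the control array (4.93). The summed signal of the 13 measured was 11420 on the GPI-immunized array, against 8909 on the control array, and Marco was in the Bacillus range. Next furthest from 1 were Ccr2 (1.78, and 2.20 and 1.76 for its dimmer probe sets) and Lyz2 (1.38). The markers of resident macrophages ran from 0.901 (Adgre1) to 1.24 (C1qb), with Cd163 at 1.00, Vcam1 at 1.02, Spic at 1.08, C1qc at 1.16 and C1qa at 1.23. The other probe sets of Vcam1 had ratios of 1.17 and 1.33.

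Lymphocyte markers lay on the other side. Over all 6961 genes with sufficient signal, 2950 had ratios below 1 and 0.445% were at least 2-fold lower. Of 11 T cell markers with sufficient signal, 9 had ratios below 1 (9 or 10 over the scalings), and the summed signal of the 12 measured was 1911 on the GPI-immunized array, against 2575 on the control array. All 10 B cell markers with sufficient signal had ratios below 1 (8 with scaling to the spiked controls). Of these 1, Fcer2a, was at least 2-fold lower (0.491, and 0.6 for its other probe set), against 0 with scaling to the spiked controls. The summed signal of the 11 B cell markers measured was 13850 on the GPI-immunized array, against 18440 on the control array. None of the T or B cell markers was at 0. The part of the cell mixture in the ratios of Arg2, Srm and Gch1 was not tested, and in RNA of whole splenocytes a change in the number of cells of a type and a change in RNA per cell cannot be told apart.

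**Figure D4:**
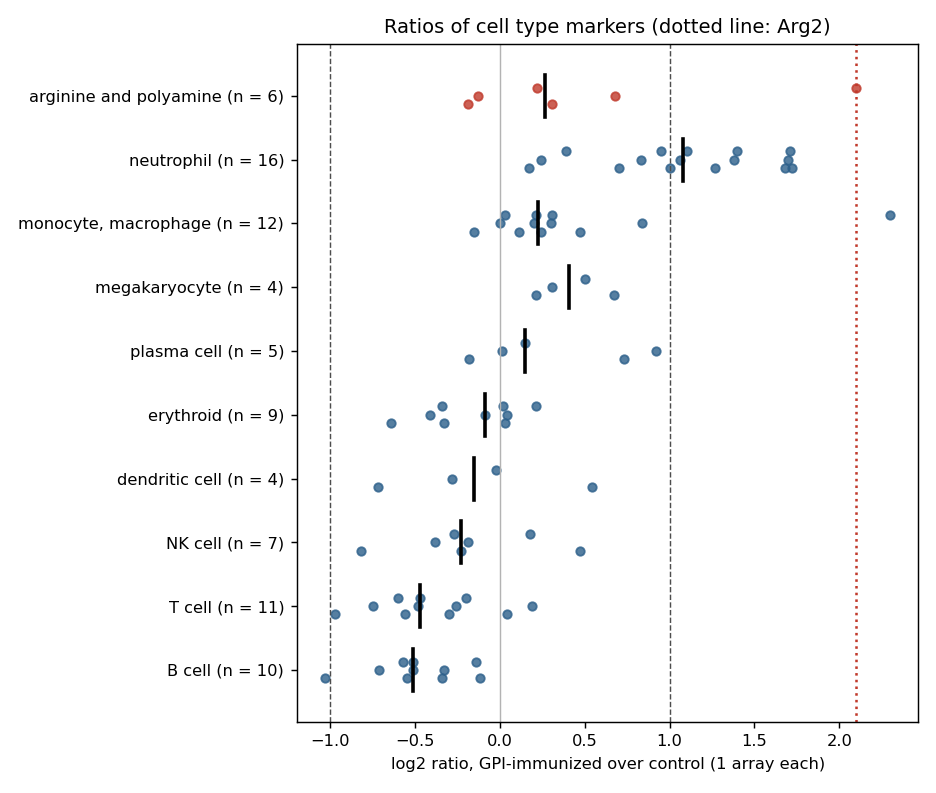
Log2 ratio of the GPI-immunized over the control signal (horizontal axis) for genes with sufficient signal, with each point a gene and 1 array per group, in the arginine and polyamine genes (red) and in 9 marker lists (blue), with list medians as black bars, 2-fold ratios as dashed lines and the log2 ratio of Arg2 (2.10) as a dotted line. The neutrophil median is 1.08 and the T and B cell medians are -0.47 and -0.51, and Cd14 (2.30) is the one marker to the right of Arg2.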

How the data were processed

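Splenocyte RNA was read on 2 Affymetrix mouse 430A2.0 arrays, 1 per group, and groups were taken from the sample titles. The authors deposited 1 linear intensity for each probe set, made with what the methods call gene expression software. The sources used here give no summarization, scaling or detection calls, so a difference in brightness between the arrays enters every ratio. The labels and the methods also describe the labelling of the RNA differently.

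Of 22626 probe sets other than control probe sets, 20380 had exactly 1 symbol in the platform annotation, 691 had several and 1555 were unnamed in it. The symbols of 20351 were the same in RefSeq (GRCm38.p6), and 29 had no match. Ratios were formed without further scaling, with the 3 signals of 0 set to 0.1, and a gene was represented by its probe set of highest mean log2 signal. A gene had sufficient signal if at least 1 array reached 50.2. No ratio was given where both signals were at most 14.1. The genes, lists and limits were chosen with earlier results of these data known. The text names each gene of the pathway, pathway neighbours (such as Azin1, Oaz2, Myc and Eif5a) and up to 4 genes of each list furthest from 1 among those with sufficient signal. Genes at background and resident macrophage markers were named beyond this rule. The steps were tested on simulated data in which fold changes were placed only in bright genes, so recovery in dimmer genes was not tested. Python 3.11.15, numpy 2.4.6, pandas 2.3.3, statsmodels 0.14.6 and matplotlib 3.10.9 were used.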

Additional observations from a re-analysis of the deposited data

How the results depend on the processing

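With 1 array per group no replicate could be left out, and no paired analysis was possible because each group has 1 sample. The alternatives were other scalings, floors on low signals, other choices of probe sets, other filters and other fold limits, and scaling to the spiked controls, which was chosen after seeing the data. That scaling moved the median log2 ratio of all genes from 0.056 to 0.247, and the others kept it between -0.037 and 0.074. The log2 ratio of Arg2 changed by more than the 0.26 between probe sets only with signals raised to the 50th percentile (50.2), where it was 1.63. Of the 6 genes 1 was at least 2-fold higher, against 0 with a signal limit at the 75th percentile (220.2), a level Arg2 does not reach, and 2 at 1.5-fold. Leaving out probe sets that can match more than 1 transcript, of the same gene or another, left 3 of the 6 genes (Arg2, Sat1 and Asl). Srm, Odc1 and Oaz1 had no value there. The count of genes at least 2-fold lower was 0 in every alternative. Over all genes, the 155 higher and 31 lower genes became 70 and 5 with the stricter filter and 1260 and 1095 without one. Signals under 14.1 cannot be ordered, which limits Arg1 and Nos2.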

Other observations

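Polyamines are needed by dividing cells, and the genes of DNA replication and mitosis were bright on both arrays. Of 15 such genes measured, all 15 had sufficient signal, 0 were past 2-fold in either direction, and their ratios ran from 0.865 to 1.31 with a median log2 ratio of 0.09 (-0.01 to 0.27 over the scalings). The summed signal was 24560 on the GPI-immunized array, against 23530 on the control array. The median log2 ratio of the 9 erythroid markers with sufficient signal was -0.09 (-0.19 to 0.09 over the scalings), with 4 ratios above 1 and 5 below. They ran from 0.641 (Epb42) to 1.16 (Tfrc) for the brightest probe sets. Dimmer probe sets differed, with 0.984 for Epb42 and 1.94 and 2.8 for Tfrc. All 4 megakaryocyte and platelet markers with sufficient signal had ratios above 1, from 1.15 to 1.59, and 0 of them were 2-fold higher. Over all 6961 genes with such a signal, 4006 had ratios above 1. Among 5 plasma cell markers, the secretory regulator Xbp1 was the highest at 1.89, and 0 were 2-fold higher (1 with scaling to the spiked controls).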
